A study of Rattus norvegicus with 12 samples.

Results

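The inferior colliculus, the midbrain station through which nearly all ascending auditory signals pass, was compared between single-sided deaf and control rats, with left and right colliculus in the same model. All 12 arrays of the series entered the comparison: 6 from deaf and 6 from control rats, with side as a covariate. Of 18166 genes measured, 9507 had a deaf minus control difference of the same sign on both sides, and the description is limited to those genes and to families of genes that shared a direction. The genes are described by this sign and by the values of each array, so the sign itself is not a result.

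All rats were of the SD (Sprague-Dawley) strain. In the deaf arm of 20 rats the right cochlea was destroyed surgically, so that the right ear was deaf and the left ear was left intact. In the control arm of 20 rats a sham operation opened the skin behind the ear but left the bulla, the bone around the middle ear, undrilled. Tissue was taken 2 weeks after surgery in both arms, and the 4 groups were left control, right control, left deaf and right deaf, with 3 arrays each. No genetic modification is listed, and the sources used here give neither age nor sex. Whether RNA on an array came from 1 animal or several, and whether the same animals supplied left and right tissue, is not stated in the labels. A p-value here measures the spread between arrays, part of which may be technical.

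The labels disagree on the tissue: hippocampus stands in the title of the series and in each sample's description, which also calls the deaf arm a noise group, while sample titles and tissue entries give the inferior colliculus. Of 20 tectal and midbrain markers 13 had a mean log2 intensity above that of the median gene, 5.97, from Tcf7l2 at 10.3 and Tfap2d at 9.60 down to Pax3 at 5.12. Of 14 markers of hippocampus and forebrain 6 lay above it, with Nrgn, a postsynaptic protein, at 11.3 and Bcl11b at 7.12, while the forebrain neuron factors Neurod6, Tbr1 and Emx1 were at 3.40, 4.42 and 4.68. Of 22 cerebellar markers 11 lay above it, and the granule cell genes Gabra6 and Fat2 were at 3.35 and 4.51. The lists overlap in level, and these values do not settle the tissue by themselves.

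Several processes were followed by name. Glucocorticoids, the adrenal stress hormones, bind the receptor Nr3c1, which enters the nucleus and switches on targets such as Sgk1, Tsc22d3, Zbtb16 and Per1. The circadian clock is a loop in which the activators Clock and Bmal1 drive their own repressors of the Per and Cry families through E-box sequences, with D-box sequences read by factors such as Tef and Dbp. Myelin is made by oligodendrocytes and is rich in cholesterol, which brain cells make themselves from acetyl units by the mevalonate pathway. In the auditory brainstem fast conduction along myelinated fibres keeps the timing by which sound sources are located.

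No gene passed the test. In limma, with side as a covariate and Benjamini-Hochberg adjustment over all 18166 genes, 0 genes (percent called 0) had an adjusted p under 0.05, the smallest being 0.779 for Sgk1. At an unadjusted p under 0.05 there were 881 genes (4.85%), near the share that such a p marks when no gene differs. Of them, 876 (4.82% of all genes) had 1 direction on both sides, 394 higher (2.17%) and 482 lower (2.65%). Across all genes 25.6% were higher and 26.8% lower on both sides, 52.3% in all. The differences on the left and on the right, taken across genes, had a Pearson correlation of 0.033, which ran from -0.063 (without right control 1) to 0.12 (without right control 3) when 1 array was left out, and was -0.010 without right deaf 1. Over the genes above the median level alone, the correlation was 0.135. These are descriptions across genes, which are not independent replicates. The 3 deaf arrays lay beyond the 3 controls in the same direction on each side in 111 genes (0.611%), 43 above (0.237%) and 68 below (0.374%). When labels are exchanged within each side (400 arrangements), a gene without any difference has a probability of 0.005 of this order, near the share found. All 6 deaf arrays lay beyond all 6 controls in 49 genes (0.27%), 18 above and 31 below.

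**Figure D1:**
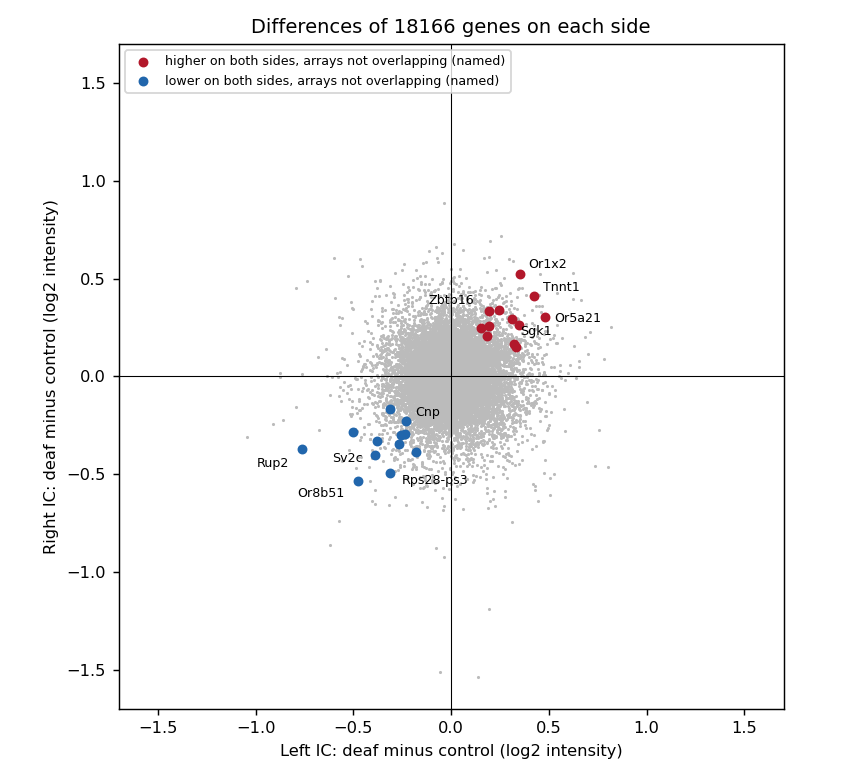
Deaf minus control difference on the left (x axis, log2) against that on the right (y axis, log2) for each of the 18166 genes, with the named genes that had non-overlapping arrays marked. The cloud has nearly no slope (Pearson correlation 0.033). The marked genes lie in the quadrants of 1 shared sign because they were picked for the same direction on both sides. Sgk1 at 0.31 and 0.29 is near the diagonal, and Rup2 at -0.76 and -0.37 is farther from it.

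Between arrays of any group the correlation over genes was 0.982 to 0.993, and deposited values at any rank differed by at most 0.0995. On the first principal component, 21.1% of the variance, right control 3 stood apart at 27.3 and right control 1 lay at -15.0 at the other side. The side by deafness interaction had 0 genes with a limma adjusted p under 0.05 (percent called 0, smallest adjusted p 0.0926) and 622 at an unadjusted p under 0.05 (3.42%).

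Sgk1, a kinase induced by glucocorticoids that promotes ion channel activity, was the gene with the smallest p. Its log2 intensities were 7.78, 7.78 and 7.82 in left control and 7.86, 7.72 and 7.80 in right control, against 8.06, 8.14 and 8.10 in left deaf and 8.13, 8.01 and 8.12 in right deaf. All 6 deaf arrays lay above all 6 control arrays, a separation that 49 of 18166 genes (0.27%) had in either direction. Sgk1 was picked by non-overlap within each side, so this order is not separate evidence. The difference was 0.30 (SE 0.050, 6 arrays against 6), which is 1.23-fold on the linear scale, with 0.31 on the left and 0.29 on the right (limma unadjusted p = 4.29e-05, adjusted p = 0.779). Leaving out any 1 array left the Sgk1 difference between 0.29 and 0.32.

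Zbtb16, a transcription factor that glucocorticoids induce, was at 6.18, 6.26 and 6.24 in left control and 6.32, 6.32 and 6.33 in right control. In left deaf it was at 6.36, 6.55 and 6.35 and in right deaf at 6.80, 6.68 and 6.51. Every deaf array again lay above every control array, by 0.27 on average (SE 0.064, limma adjusted p = 0.997). Hif3a, a hypoxia-related transcription factor that is also a glucocorticoid target, ranged over 5.20, 5.45 and 5.62 in control (lowest, median and highest) and over 5.57, 5.68 and 5.89 in deaf arrays. Its groups overlapped, and its difference was 0.28 (SE 0.081, limma unadjusted p = 0.00474, adjusted p = 0.997).

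Of the 34 genes listed for the glucocorticoid response 30 were measured, and 16 were higher and 6 lower on both sides, with 8 of mixed sign. At an unadjusted p under 0.05, 7 were higher on both sides and 3 lower, beside 2.17% and 2.65% of all genes. The median difference of the list was 0.11, against -0.0014 for all genes. The shares by direction were 53.3% higher and 20% lower, against 25.6% and 26.8% of all genes. They fell short of the 60% set for describing a family by 1 direction. That turned on single arrays: without left control 3, and likewise without left deaf 2, 19 of 30 (63.3%) were higher on both sides.

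By role, the induced transcription factors were grouped with Nfkbia, an inhibitor of NF-kB that is not itself a transcription factor. All 8 measured in this group were higher on both sides (median 0.17): Zbtb16, Hif3a, Per1 (0.23), Nfkbia (0.18), Cebpb (0.16), Tsc22d3 (0.16), Klf15 (0.12) and Klf9 (0.04). Of these, 5 had an unadjusted p under 0.05, and Cebpb, Klf15 and Klf9 did not. Of all genes, 25.6% were higher on both sides, and 2.17% were so at that limma p. Nfkbia holds the inflammatory factor NF-kB in the cytoplasm, and Tsc22d3, or GILZ, carries part of the anti-inflammatory action of the hormone. Of the 6 induced kinases and signalling genes 5 were higher on both sides: Sgk1, the phosphatase Dusp1 (0.22), the metabolic kinase Pdk4 (0.15), the receptor Mertk (0.12) and Errfi1 (0.10). Ddit4, an inhibitor of mTOR signalling, had a left difference of -0.03 and a right one of 0.22.

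Other members differed. Both receptors were lower on both sides: Nr3c1, the glucocorticoid receptor, by -0.14 (SE 0.054, unadjusted p = 0.0209, limma adjusted p = 0.997) and Nr3c2, the mineralocorticoid receptor, by -0.05 (unadjusted p = 0.495). Nr3c1 was at 7.90, 7.995 and 7.92 in left control and 7.86, 7.87 and 7.82 in right control, against 7.66, 7.75 and 7.90 in left deaf and 7.73, 7.78 and 7.69 in right deaf. On the right the groups were separate, and on the left deaf 3 met the lowest control. Hsd11b1, the enzyme that regenerates active hormone inside cells, had a difference of -0.17 (SE 0.072), and Hsd11b2, which inactivates it, one of 0.24 (SE 0.13), at a low level of 5.30. Fkbp5, a co-chaperone that lowers the receptor's affinity, had a left difference of -0.01 and a right difference of 0.38.

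Among induced enzymes, transporters and secreted proteins 2 of 8 were higher and 2 lower on both sides, against 25.6% and 26.8% of all genes. Sult1a1, a sulfotransferase, had a difference of 0.38 (SE 0.17) and the metal-binding Mt1 one of 0.10, whereas Tat, tyrosine aminotransferase, a glucocorticoid target in liver, had one of -0.36 (SE 0.084). Tat was dim, with control arrays at 3.93, 4.01 and 4.26 and deaf arrays at 3.37, 3.71 and 3.89 (lowest, median and highest), below the lower quartile of genes.

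**Figure D2:**
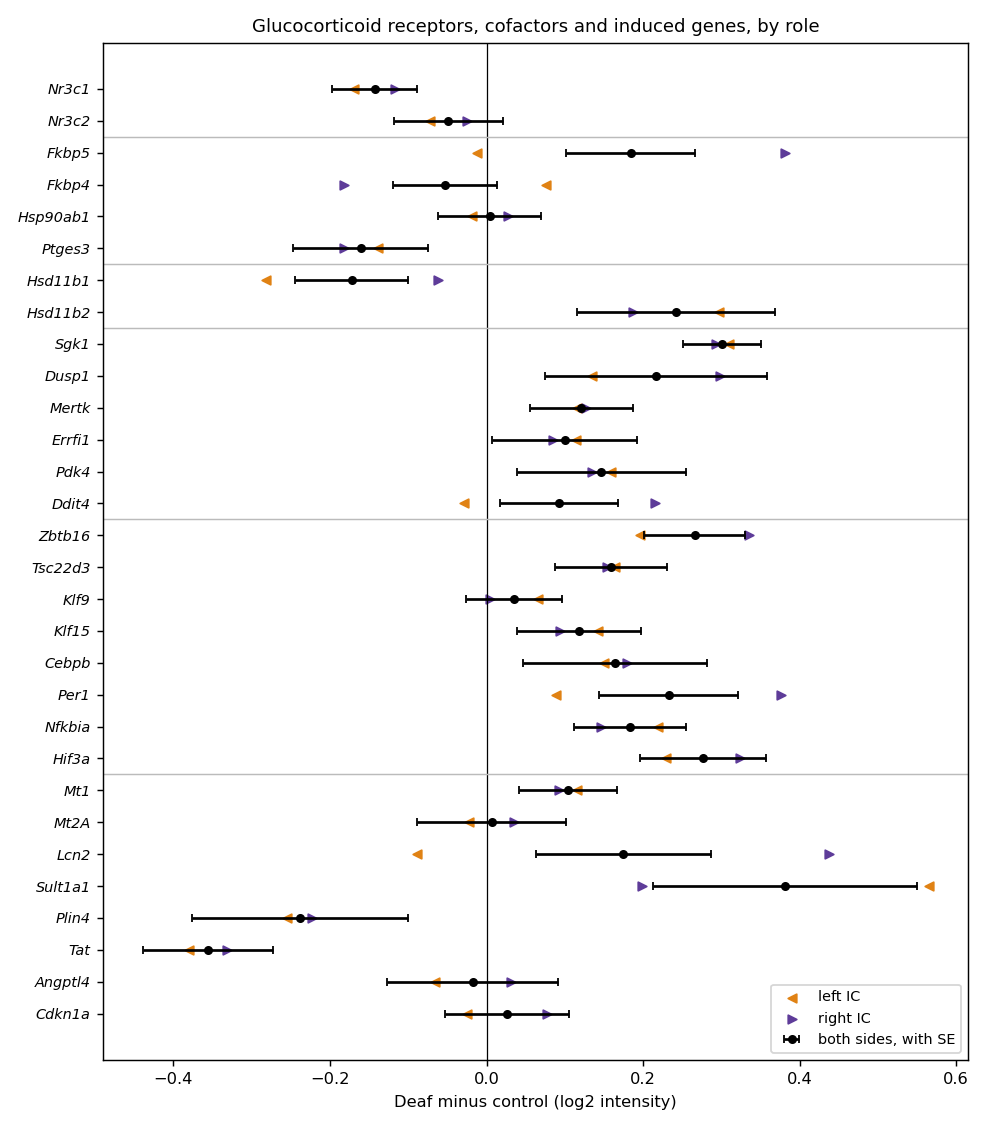
Deaf minus control difference (x axis, log2, bars are 1 SE) of each measured glucocorticoid response gene (y axis), grouped by role, with black points for the shared difference and triangles for the left and right differences. The 8 genes of the induced transcription factor group, Nfkbia among them, lie right of 0 on both sides. Nr3c1 at -0.14 and Nr3c2 at -0.05 lie left of it, and Fkbp5 has its left and right marks at -0.01 and 0.38.

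The mean level of the 30 genes was 6.78 to 6.89 in control and 6.89 to 6.99 in deaf arrays, and the arms overlapped, since left control 3 lay above left deaf 2 and left deaf 3. Without left control 2 the median difference of the list was 0.079. Without left deaf 1, and likewise without right deaf 1, 4 members in place of 7 were higher at an unadjusted p under 0.05.

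Per1 belongs to the clock as well. Its control arrays were at 6.92, 6.87 and 7.34 on the left and 6.89, 6.80 and 6.78 on the right, and its deaf arrays at 7.26, 7.02 and 7.11 on the left and 7.21, 7.17 and 7.23 on the right. Left control 3 was higher than every deaf array, and the other 5 controls were lower than every deaf array. The difference was 0.23 (SE 0.089, limma unadjusted p = 0.0216, adjusted p = 0.997), with 0.09 on the left and 0.38 on the right (interaction, unadjusted p = 0.108).

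Of the 27 names in the clock list 19 were measured, of which 11 were higher and 3 lower on both sides, and 4 were higher at an unadjusted p under 0.05 with 0 lower, beside 2.17% and 2.65% of all genes. The share higher on both sides was 57.9%, against 25.6% of all genes, and 63.2% without left control 3 or without right deaf 1. The repressor arm held 6 of 8 genes that were higher on both sides, among them Per1, Per2 (0.21, SE 0.090), Per3 (0.15, SE 0.073) and Cry2 (0.06). Csnk1d, the casein kinase that marks Per proteins for breakdown, had a difference of 0.16 (SE 0.058), with control arrays over 7.62, 7.70 and 7.83 and deaf arrays over 7.76, 7.89 and 7.96 (lowest, median and highest). Tef, an output factor of the clock, had a difference of 0.16 (SE 0.058), with control arrays over 7.31, 7.53 and 7.56 and deaf arrays over 7.50, 7.66 and 7.83. In both genes the arms overlapped in part.

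The activators had small differences: Bmal1 -0.07, Clock -0.02 and Npas2 0.0010, the last of mixed sign. Dbp, another output factor, was at 0.04 and the nuclear receptor Nr1d1 at 0.07. The list's median was 0.04, which went down to 0.010 without left control 2, 0.021 without right control 3 and 0.013 without right deaf 3. The sources used here give no hour of tissue collection.

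Sequences upstream of 3 of these genes are shown. They were picked because each holds a match to the element through which its pathway is known to act, so the match itself is not a result. They are RefSeq sequences of build GRCr8, 250 bases ending just before the annotated start, on the gene's strand, 5′ to 3′, with the match in capitals. Tsc22d3 (chrX:109065431-109065680, minus strand) holds the palindrome ACANNNTGT of the glucocorticoid receptor with its first base at -183, upstream of 1 of its 3 listed starts. Tef (chr7:115206577-115206826, plus strand) holds the E-box CACGTG at -198, and Per2 (chr9:99496994-99497243, minus strand) holds the D-box TTATGTAA at -192.
Tsc22d3: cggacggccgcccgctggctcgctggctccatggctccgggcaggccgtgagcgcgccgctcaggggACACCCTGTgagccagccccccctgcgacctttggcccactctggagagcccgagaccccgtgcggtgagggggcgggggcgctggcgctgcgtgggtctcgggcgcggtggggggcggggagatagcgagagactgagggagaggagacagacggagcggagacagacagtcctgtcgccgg
Tef: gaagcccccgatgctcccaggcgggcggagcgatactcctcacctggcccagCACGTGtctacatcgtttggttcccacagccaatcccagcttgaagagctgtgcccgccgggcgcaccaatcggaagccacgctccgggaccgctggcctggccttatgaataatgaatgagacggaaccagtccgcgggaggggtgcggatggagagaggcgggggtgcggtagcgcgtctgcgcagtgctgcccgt
Per2: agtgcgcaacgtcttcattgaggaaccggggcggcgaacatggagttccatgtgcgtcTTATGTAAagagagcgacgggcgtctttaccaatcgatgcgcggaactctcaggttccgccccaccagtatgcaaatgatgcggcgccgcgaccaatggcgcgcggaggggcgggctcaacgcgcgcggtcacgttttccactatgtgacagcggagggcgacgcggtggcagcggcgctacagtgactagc

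Both strands were searched in windows from 250 bases before to 50 after the start, 33469 of them in all. Of the 19 windows of 17 matched clock genes, 5 held CACGTG (26.3%), those of Bhlhe40, Bhlhe41, Ciart, Nr1d1 and Tef, against 6.42% of all windows. TTATGTAA was in 1 of 19, that of Per2, against 0.893%. Among 36 windows of 26 matched glucocorticoid genes, ACANNNTGT was in 2 (5.56%, Lcn2 and Tsc22d3), near the 6.86% of all. Its single-arm element AGAACA was in 2 (5.56%, Plin4 and Sult1a1), below 20.7%. ACANNNTGT was in 3 of the 19 clock windows (15.8%), and CACGTG in 3 of 19 windows of the cholesterol list (15.8%). The 3 windows of Sgk1 held neither. The motifs do not overlap in the sequences shown, and a match is a run of letters, not a measured binding site.

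Most measured genes of myelin and oligodendrocytes had a lower mean in deaf than in control arrays on both sides, and 0 of them passed the adjusted threshold. Of 31 measured (35 listed) 21 were lower on both sides (67.7%, against 26.8% of all genes) and 2 higher, Olig1 and Pmp2. Without left deaf 3 it was 18 of 31 (58.1%), under the 60% of the rule. At an unadjusted p under 0.05, 5 were lower and 0 higher, beside 2.65% and 2.17% of all genes. The median difference was -0.077, with -0.062 on the left and -0.095 on the right. In bulk tissue, fewer cells of a type and less RNA per cell cannot be told apart.

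Ugt8, which makes galactosylceramide, the main glycolipid of myelin, was at 9.41, 9.62 and 9.42 in left control and 9.82, 9.58 and 9.51 in right control. It was at 9.25, 9.35 and 9.09 in left deaf and 9.32, 9.37 and 9.33 in right deaf. Every deaf array was below every control array, by -0.28 on average (SE 0.070, 0.825-fold, limma unadjusted p = 0.00165, adjusted p = 0.997).

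Cnp, a protein of the cytoplasmic channels in myelin, showed the same order. Its control arrays were at 10.11, 10.10 and 10.11 on the left and 10.33, 10.21 and 10.12 on the right, and its deaf arrays at 9.82, 10.002 and 9.81 on the left and 9.89, 10.06 and 10.02 on the right. The difference was -0.23 on each side (SE of the shared difference 0.059, 0.853-fold, limma adjusted p = 0.997).

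By role, 6 of 7 adhesion and non-compact myelin proteins were lower on both sides, with Cnp, Ermn (-0.13), Omg (-0.12), Opalin (-0.10), Mog (-0.07) and Mag (-0.07). Omg, a surface protein that inhibits neurite growth, was below the controls in all 3 deaf arrays on each side. Of 6 lipid synthesis genes 5 were lower on both sides, among them the fatty acid elongases Elovl7 (-0.14) and Elovl1 (-0.11). Of 8 other oligodendrocyte genes 7 were lower on both sides, with Hapln2, a link protein of the nodes of Ranvier, at -0.18 (SE 0.072) and the early-myelination marker Bcas1 at -0.13.

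The proteins of compact myelin were less uniform. Mbp, which holds the membrane layers together, was at -0.11 (SE 0.059) and Mal at -0.08, both lower on both sides, Mobp and Cldn11 were at -0.00083 and 0.0093 with mixed sign, and Pmp2 was at 0.06. Among 5 transcription factors of the lineage only Olig2 was lower on both sides, at -0.15, and Olig1 was higher, at 0.09. Of 9 markers of oligodendrocyte precursors 1 was higher and 3 lower on both sides, against 25.6% and 26.8% of all genes. None of the 9 had an unadjusted p under 0.05 in either direction.

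The mean level of the 31 genes was 8.66 to 8.81 in control and 8.60 to 8.72 in deaf arrays, so the arms overlapped. Leaving out right control 1, left deaf 1 or right deaf 1 lowered the count of 5 members at an unadjusted p under 0.05 to 2, and leaving out left control 1 or left control 3 lowered it to 3. The count was 9 with trend and robust variances and 2 on means of left and right arrays of a number.

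**Figure D3:**
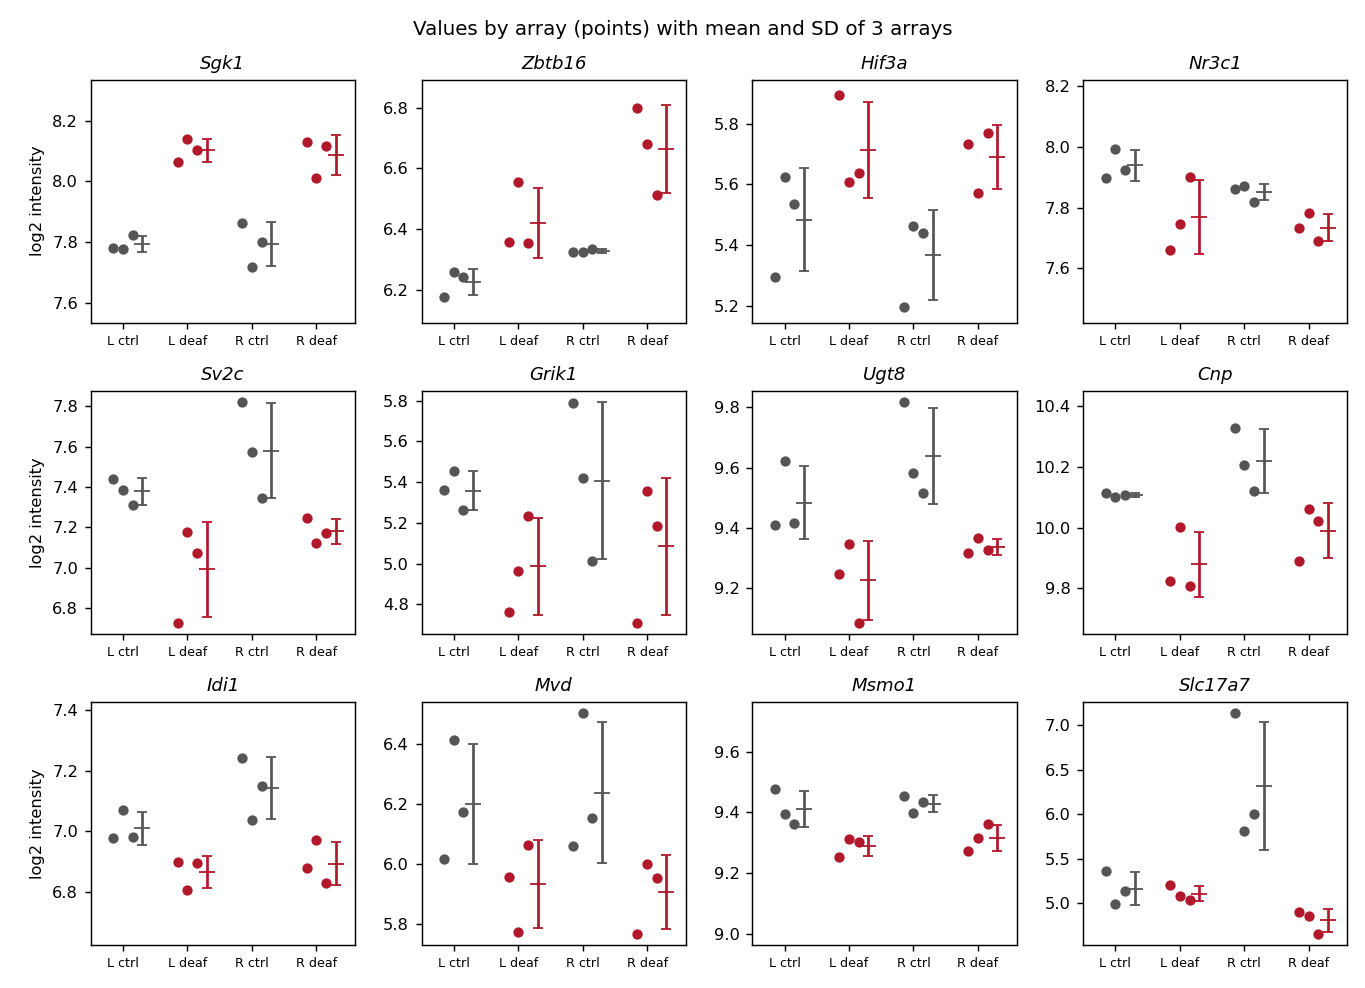
Log2 intensity (y axis) of named genes in each of the 12 arrays, in the 4 groups on the x axis, 1 panel per gene with its own y range. Points are arrays, and the bar beside them is the mean and SD of 3 arrays. Sgk1 and Zbtb16 have all deaf arrays above all controls, and Ugt8, Cnp and Idi1 have all deaf arrays below them.

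Most measured genes of cholesterol synthesis also had a lower mean in deaf arrays on both sides. Of 21 measured (27 listed) 14 were lower on both sides (66.7%, against 26.8% of all genes) and 5 higher. Without right control 1, and likewise without left deaf 1, 11 of 21 (52.4%) were lower, under the 60% of the rule. At an unadjusted p under 0.05, 4 were lower and 0 higher, beside 2.65% and 2.17% of all genes, and the median difference was -0.093 (left -0.065, right -0.067). Of the enzymes 13 of 16 were lower on both sides, with a median of -0.12.

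In the order of the pathway, the first measured steps, Acat2 and Pmvk, were at 0.01 and 0.02. From Mvd onward, each measured enzyme except Tm7sf2 (0.04) was lower on both sides. Mvd, which makes isopentenyl diphosphate, had control arrays at 6.02, 6.41 and 6.17 on the left and 6.06, 6.50 and 6.15 on the right, and deaf arrays at 5.96, 5.77 and 6.06 on the left and 5.77, 6.001 and 5.95 on the right. One control array on the left lay below the highest left deaf array, and on the right the groups were separate. The difference was -0.30 (SE 0.094, 0.812-fold, limma unadjusted p = 0.0071, adjusted p = 0.997).

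Idi1, the isomerase of the next step, was at 6.98, 7.07 and 6.98 in left control and 7.24, 7.04 and 7.15 in right control. In left deaf it was at 6.90, 6.81 and 6.90 and in right deaf at 6.88, 6.97 and 6.83, with every deaf array below every control array. The difference was -0.20 (SE 0.056, limma unadjusted p = 0.00407, adjusted p = 0.997).

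The later steps continued with Fdps (-0.13) and Fdft1 (-0.09), which build farnesyl diphosphate and squalene, and Sqle (-0.04) and Lss (-0.16), which oxidise and close the squalene chain. Among the sterol-modifying enzymes, Cyp51 was at -0.13, Msmo1 at -0.12 (SE 0.047), Hsd17b7 at -0.20, Ebp at -0.19, Nsdhl at -0.06, Sc5d at -0.06 and Dhcr7 at -0.16 (SE 0.067). Msmo1 had its 3 deaf arrays below its 3 controls on each side. Without left deaf 1 the difference of Ebp was -0.11.

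The 5 regulators had a median of -0.0084. Srebf2, the transcription factor that drives the enzyme genes when sterols are scarce, was at -0.01 with mixed sign, and its escort protein Scap was at -0.04 with mixed sign. The sterol sensor Insig1, itself a target of Srebf2, was at -0.09, while Insig2 was at 0.01 and Srebf1 at 0.03. The sterol element TCACNCCAC, searched as above, was in 0 of 19 windows of 18 matched genes of the list, against 1.12% of all windows. At that share, 0 matches in 19 windows is the usual outcome.

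The mean level of the 21 genes was 7.63 to 7.75 in control and 7.55 to 7.63 in deaf arrays, the lowest control lying just above the highest deaf array. Without left control 1, and likewise without right deaf 1, 2 members in place of 4 were lower at an unadjusted p under 0.05.

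**Figure D4:**
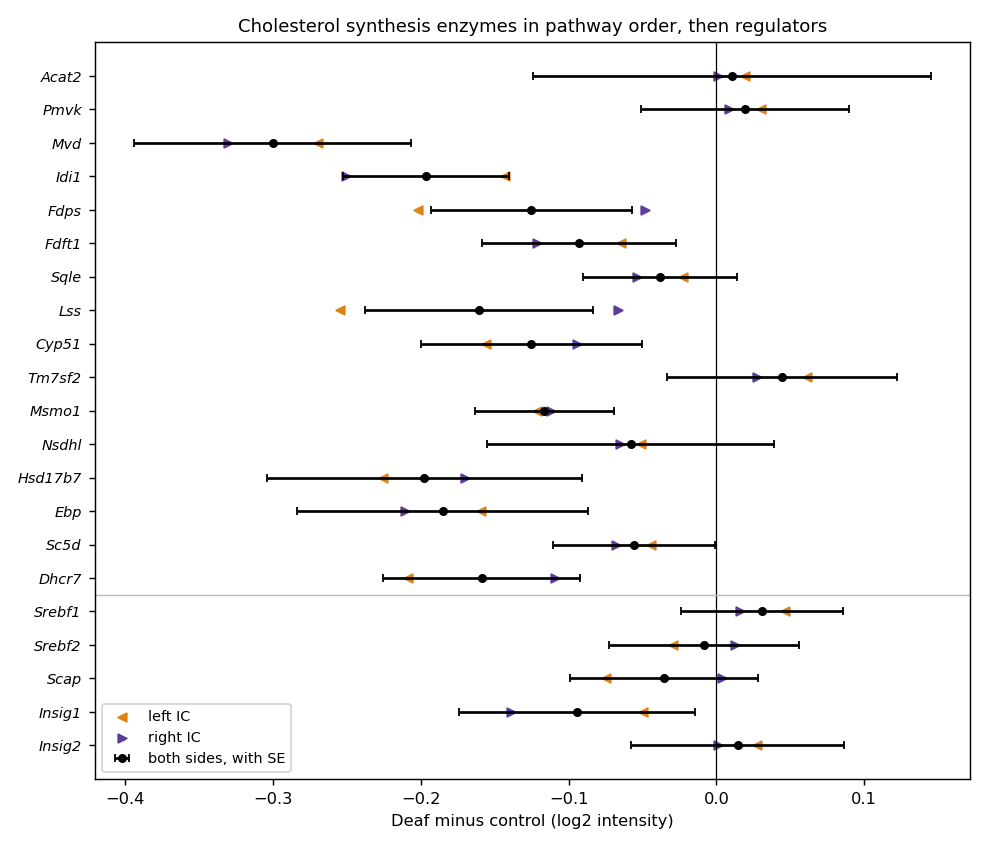
Deaf minus control difference (x axis, log2, bars are 1 SE) of each measured gene of cholesterol synthesis (y axis), enzymes in pathway order and regulators after them, with black points for the shared difference and triangles for the left and right differences. The enzymes from Mvd (-0.30) to Dhcr7 (-0.16) lie left of 0 except Tm7sf2 at 0.04, and the regulators run from Insig1 at -0.09 to Srebf1 at 0.03.

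Astrocyte markers also met the 60% rule, with smaller differences. Of 18 measured 11 were lower on both sides (61.1%, against 26.8% of all genes) and 3 higher (25.6% of all genes). The median was -0.050. At an unadjusted p under 0.05, 0 were called in either direction. Acsbg1, a fatty acid activating enzyme, was at -0.12 (SE 0.065), the glutamate transporters Slc1a3 and Slc1a2 at -0.09 and -0.05, the gap junction gene Gjb6 at -0.09 and the bicarbonate transporter Slc4a4 at -0.05.

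Gfap and Vim, the filament genes by which reactive astrocytes are known, were at -0.06 (SE 0.067) and 0.22 (SE 0.17), and Serpina3, another reactive marker, was at 0.12. Sox9, an astrocyte transcription factor, was at 0.18. The mean level of the list was 9.23 to 9.36 in control and 9.24 to 9.38 in deaf arrays, which overlapped over nearly their whole range. Leaving out 1 array took the list under 60% for 9 of the 12 arrays, down to 6 of 18 members (33.3%) without left control 3.

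Markers of other cells and of adjoining tissue had these values, beside 25.6% of all genes higher and 26.8% lower on both sides. Microglia had 3 of 18 higher and 6 lower on both sides, with 0 at an unadjusted p under 0.05, and genes of the interferon response had 7 of 20 higher and 5 lower. Endothelial and mural cells had 3 of 21 higher and 9 lower (median -0.065), with Slco1c1, a thyroid hormone carrier of the blood-brain barrier, at -0.20. The haemoglobin genes Hba-a1 and Hbb-b1 were at -0.30 and -0.33, and the mean level of the 4 blood genes was 5.71 to 5.96 in control and 5.59 to 5.91 in deaf arrays.

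Meningeal fibroblast genes had 6 of 17 higher on both sides and 0 lower, against 25.6% and 26.8% of all genes. Mean levels of that list were 5.75 to 6.58 in control and 5.60 to 6.67 in deaf arrays. Choroid plexus and ependymal genes had 5 of 19 higher and 4 lower, with Ttr, the choroid plexus transporter, at 0.19. Cerebellar genes had 2 of 22 higher and 12 lower (median -0.11), and the right controls stood apart. Their mean levels of the list were 6.35 to 6.76, against 6.20 to 6.27 in left control, 6.21 to 6.25 in left deaf and 6.17 to 6.19 in right deaf. Markers of hippocampus and forebrain had 1 of 14 higher and 5 lower, and tectal markers 8 of 20 higher and 6 lower. The part of these cells in the myelin, cholesterol and glucocorticoid values was not tested.

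**Figure D5:**
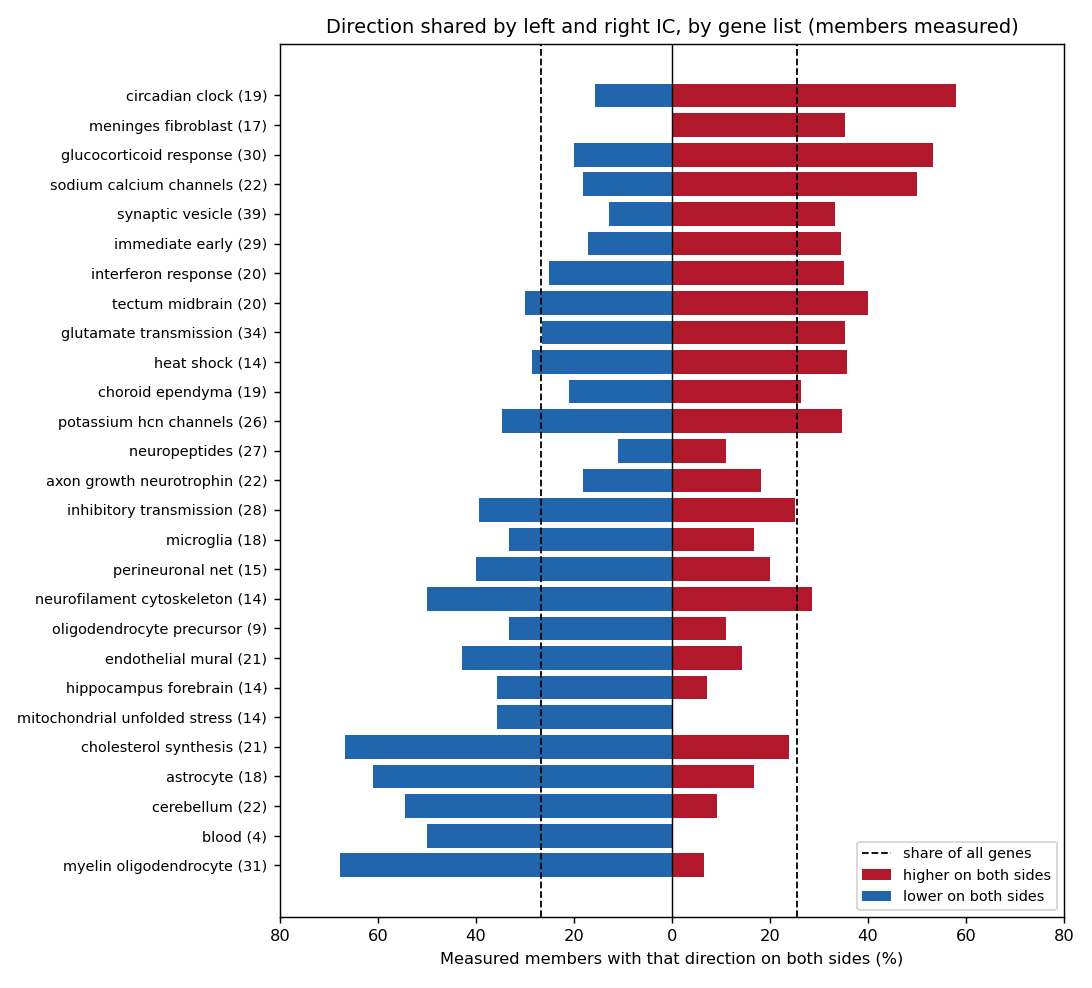
Share of measured members (x axis, percent) that were higher and lower on both sides for each gene list (y axis), with the shares over all 18166 genes, 25.6% higher and 26.8% lower, as reference lines. Myelin (67.7% lower), cholesterol synthesis (66.7% lower) and astrocyte markers (61.1% lower) are the lists past 60%.

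Synaptic vesicle genes had 13 of 39 higher and 5 lower on both sides, against 25.6% and 26.8% of all genes. At an unadjusted p under 0.05 there was 1 in each direction, near the 2.17% and 2.65% of all genes. Sv2c, a vesicle glycoprotein, was at 7.44, 7.39 and 7.31 in left control and 7.82, 7.57 and 7.35 in right control, against 6.73, 7.17 and 7.07 in left deaf and 7.25, 7.12 and 7.17 in right deaf. Every deaf array was below every control array, with -0.39 on the left and -0.40 on the right (SE of the shared difference 0.090, 0.761-fold, limma adjusted p = 0.997). Its relative Sv2b was at -0.14 and the calcium sensor Syt3 at -0.06. Unc13b, a priming factor, was at 0.17 and the SNARE protein Snap25 at 0.14, which was 0.065 without left control 2. Syt10 was at 0.0042 in the left colliculus and 0.32 in the right.

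Glutamate transmission genes had 12 of 34 higher and 9 lower on both sides, against 25.6% and 26.8% of all genes, with 3 and 2 at an unadjusted p under 0.05, beside 2.17% and 2.65%. Grik5, a kainate receptor subunit, was at 0.13 (SE 0.053), Grm5, a metabotropic receptor, at 0.14 (SE 0.062) and Cacng5, an AMPA receptor auxiliary subunit, at 0.16 (SE 0.070). The kainate subunit Grik1 was at -0.35 (SE 0.14), with control arrays over 5.02, 5.39 and 5.79 and deaf arrays over 4.71, 5.08 and 5.36 (lowest, median and highest), and the NMDA subunit Grin3b at -0.23.

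The vesicular transporter Slc17a7, which loads glutamate into vesicles and is abundant in cerebellar granule cells, had a shared difference of -0.78 that came from the right side. It was at 5.36, 4.99 and 5.13 in left control and 7.14, 5.81 and 5.999 in right control, against 5.20, 5.07 and 5.04 in left deaf and 4.90, 4.86 and 4.65 in right deaf. The left and right differences were -0.06 and -1.51 (interaction, unadjusted p = 0.0022), and the shared difference was -0.52 without right control 1. Fat2, another granule cell gene, had a left difference of -0.08 and a right one of -0.88.

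Inhibitory transmission had 7 of 28 higher and 11 lower on both sides, against 25.6% and 26.8% of all genes. At an unadjusted p under 0.05 there was 1 lower, beside 2.65% of all genes. That was Glra1, the main glycine receptor subunit of the adult brainstem, at -0.26 (SE 0.12), and at -0.17 without right control 1, its highest array at 9.17. Slc12a2, which loads chloride into cells, was at -0.11, and Slc32a1, the vesicular transporter of GABA and glycine, at -0.12. The GABA-A subunits Gabrb2 and Gabrg3 were at 0.07 and 0.09, and the glycine receptor subunit Glra4 at 0.14.

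The list of sodium and calcium channels had 11 of 22 members higher (50%) and 4 lower on both sides, against 25.6% and 26.8% of all genes, and had no direction by the 60% rule. None of the 22 had an unadjusted p under 0.05. Within it 10 of 15 calcium channel subunits were higher and 1 lower, from Cacna1e at 0.03 to Cacna2d1 at 0.13 among the higher, and of 7 sodium channel genes 1 was higher and 3 lower. Potassium and HCN channels had 9 of 26 in each direction, and the two-pore channel Kcnk15 was at -0.32 (SE 0.095). Among 29 immediate early genes 10 were higher and 5 lower on both sides. Nr4a3 was at 0.24 (SE 0.11), the 1 member with an unadjusted p under 0.05 (2.17% of all genes), and the activity marker Npas4 was at 0.26.

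Structural genes of neurons included low values. Nefh, the heavy neurofilament subunit of large axons, was at -0.25 (SE 0.073, limma unadjusted p = 0.00528, adjusted p = 0.997), and Prph, peripherin, at -0.48 (SE 0.19). The list of 14 had 4 higher and 7 lower on both sides, against 25.6% and 26.8% of all genes. Perineuronal net genes had 3 of 15 higher and 6 lower, with Hapln2, also on the myelin list, and the protease Adamts4 at -0.20. Neuropeptides had 3 of 27 in each direction and axon growth genes 4 of 22 in each, with Sox11 at 0.20 and Ecel1 at -0.23.

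Among genes outside these lists, named for having non-overlapping arrays on each side and the smallest p, several had high intensities. Ncdn, neurochondrin, a neuronal protein that restrains CaMKII, was at 10.15, 10.12 and 10.26 in left control and 10.02, 10.06 and 10.04 in right control, against 10.45, 10.37 and 10.27 in left deaf and 10.30, 10.23 and 10.21 in right deaf. It differed by 0.20 (SE 0.052), and the arms overlapped only across sides. Pip5k1a, which makes the membrane lipid PIP2, had control arrays over 7.53, 7.58 and 7.71 and deaf arrays over 7.76, 7.79 and 7.89 (lowest, median and highest), with no overlap and a difference of 0.20 (SE 0.051). Rnase4, a secreted ribonuclease, had control arrays over 9.35, 9.48 and 9.57 and deaf arrays over 9.08, 9.22 and 9.37, and a difference of -0.24 (SE 0.063).

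At middle and low levels, the macrophage lectin Siglec1 was at 0.31 (SE 0.065), the plasma protein gene Ambp at 0.29, the insulin-related Trarg1 at 0.24, the slow skeletal troponin Tnnt1 at 0.42, the tubulin ligase relative Ttll9 at 0.22 and Prps1l3 at 0.24. Lower were Rup2 at -0.57 (SE 0.11), Uros, an enzyme of haem synthesis, at -0.27 (SE 0.058), Rps28-ps3 at -0.40, the serine protease Tmprss5 at -0.28 and the secreted signal Wnt9b at -0.31. Rps28-ps3 carries the name of a pseudogene, and its probe may share signal with copies of the same ribosomal protein gene. The odorant receptor genes Or5a21 (0.39), Or1x2 (0.44), Or8b51 (-0.50) and Or11g26b (-0.39) lay between 2.18 and 4.66 on average, at the dim end of the array.

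At the edge of this choice, Prps1l3 (0.24) was the last named among the higher genes and Itgb6 (0.25) the next in order of p. Wnt9b (-0.31) was the last among the lower and Thap12 (-0.22) the next. Limma adjusted p was 0.997 for each of these genes. No detection calls were used, and dim genes were kept.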

How the data were processed

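The 12 arrays were labelled with biotin for 1-colour Affymetrix chips, per the labels' protocols. The deposited values were taken as log2 intensity, made comparable between arrays by the authors; their scale was read from the values, and the sources used here name neither array model, software nor normalization. Of 29489 probes, 18511 had 1 symbol, 575 had several and 10403 had none. The brightest probe per gene was kept (291 genes had over 1), leaving 18166 genes with no filter on dim genes. The additive model of side and arm was run in limma 3.58.1 (R 4.3.3), two-sided, with Benjamini-Hochberg adjustment over all genes and a threshold of 0.05 (9 residual and 3.75 prior degrees of freedom, median SE 0.0849); 4 group means gave side differences and the interaction. With 6 arrays per arm their number limits the precision. Tested on simulated data for this comparison (18166 genes), the model recovered 85 of 100 genes made 1.5-fold higher or lower. It recovered 98 of 100 made 2-fold higher or lower. There were 9 false calls. The simulated noise was normal and independent for each gene and array, with no side effect and no array-wide effect. Both sets of 100 genes were changed in the same run, and the adjusted threshold is stricter when fewer genes change. These counts therefore do not give the recovery in the deposited arrays. Recovery of changes smaller than 1.5-fold, such as the 1.23-fold difference of Sgk1, was not tested.

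The members, the 37 lists (27 by function, 10 by symbol pattern) and the rules were chosen with earlier results of these data known. Lists are described by counts, with no test. Named were: up to 12 genes per direction with the smallest p whose arrays did not overlap on either side, skipping unnamed loci and some receptor and keratin-associated families; up to 6 members of each list that had 60% of members in 1 direction; and up to 3 per direction in 7 lists. Other members are named by role. Other normalizations, filters, probe rules, variance models, weights, replicate blocks and the loss of each array were tried.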

Additional observations from a re-analysis of the deposited data

Results flagged for a closer look

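Among the named genes, 142 sets of 6 arrays of an arm were searched for an array far from the other 5, and 8 were found. Chance alone marks about 1 set in 20 by this rule. In control arrays, Rup2 was 4.75 in left control 1 against 5.02 to 5.17 in the others. Per1 was 7.34 in left control 3 against 6.78 to 6.92, and Or11g26b was 2.80 in left control 2 against 2.22 to 2.33. In right control 3, Tef was 7.31 against 7.47 to 7.56 and Glra4 was 4.50 against 4.94 to 5.19. In deaf arrays, Sv2c was 6.73 in left deaf 1 against 7.07 to 7.25. Rorb was 8.70 in right deaf 3 against 8.50 to 8.57, and Grik5 was 7.28 in right deaf 2 against 7.40 to 7.47.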

How the results depend on the processing

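In each alternative run, 0 genes passed the limma adjusted threshold of 0.05, and also 0 at 0.10 in the model of side and arm. The smallest adjusted p of any was 0.058, without right control 3, the array that stood apart on the first principal component. It was not that of Sgk1, whose limma adjusted p was at least 0.503 when any 1 array was left out. With trend and robust variances the smallest was 0.0663, that of Sgk1, and it was 0.0728 when dimmer genes than the median were left out. It was 0.444 with array weights and 0.21 without right control 3 and left deaf 2, a setting chosen after seeing the data. Of 1685 values of named genes under alternatives, 1679 kept their sign and their side of the threshold and 6 changed sign. Part of this was fixed beforehand. With equal groups, 4 group means, replicate blocks and trend and robust variances leave each difference as it was, and no gene passed in any run. Pmvk was -0.0081 with array weights and -0.026 without those 2 arrays, and ran from -0.010 to 0.065 without 1 array; Bmal1 was 0.022 without those 2 arrays. The cause was not tested. A separate fit of the genes above the median level, with fewer genes tested, had 481 genes of the same direction at an unadjusted p under 0.05 (876 over all genes) and 68 with non-overlapping arrays (111 over all genes). With fewer arrays, non-overlap is met more often: 505 genes without those 2 arrays, and 165 to 282 without 1 array, when the genes at an unadjusted p under 0.05 ran from 701 to 1130. Without 1 array the median difference ran from 0.079 to 0.13 for the glucocorticoid list, 0.010 to 0.051 for the clock, -0.095 to -0.061 for myelin, -0.097 to -0.061 for cholesterol synthesis and -0.059 to -0.033 for astrocytes. Whether replicate numbers pair the arrays could not be decided from so few pairs. Of 6 same-numbered left and right pairs of an arm, 2 had a correlation of deviations over 0.1 (mean 0.033). Of 12 other-numbered pairs 1 did (mean -0.016), and 6 of 12 arrays correlated best with their own number. If left and right arrays share animals, the 6 arrays of an arm are not independent. With the number as a replicate block, 0 genes passed, with 844 genes of the same direction at an unadjusted p under 0.05 (812 with a random block, 752 with means of both sides). On those means the members at an unadjusted p under 0.05 went from 7 to 4 in the glucocorticoid list, from 5 to 2 in myelin and from 4 to 2 in cholesterol synthesis.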

Other observations

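Gene families defined by symbol are given beside the shares of all genes, 25.6% higher and 26.8% lower on both sides. Solute carriers had 90 of 318 higher and 67 lower on both sides, and Zfp zinc finger genes 63 of 242 higher and 53 lower. Ribosomal protein genes had 13 of 38 higher (34.2%) and 6 lower (15.8%) in the large subunit and 8 of 18 higher (44.4%) and 3 lower (16.7%) in the small one. Respiratory complex I had 6 of 32 higher (18.8%) and 12 lower (37.5%), cytochrome oxidase and ATP synthase 12 of 41 higher and 13 lower, and the proteasome 12 of 36 higher and 10 lower. Cytochrome P450 genes had 15 of 73 higher and 24 lower, keratin-associated proteins 9 of 34 higher and 4 lower, and histones 9 of 41 in each direction. Among heat shock genes 5 of 14 were higher and 4 lower, and among genes of mitochondrial and unfolded protein stress 0 of 14 were higher and 5 lower, with Chac1, an enzyme that degrades glutathione, at -0.20.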
